A study of Mus musculus with 12 samples.

Results

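The 39 genes described here make up a list of monocyte, macrophage and dendritic cell genes, read on Agilent arrays of mouse granulocyte-macrophage progenitors (GMP), the bone marrow cells that give rise to neutrophils and monocytes. A probe was taken for a gene of the list by the gene name in the scanner files or, for a renamed gene, by its transcript accession, which placed the former Emr1 under Adgre1. The list holds 33 monocyte and macrophage genes and 6 dendritic cell genes. Of these, 38 had a probe, 55 of the 39429 probes on the array in all, and no probe was named Ly6c2. For 33 of the 39, at least 1 group had a probe whose signal was well above background on all of its arrays, and these 33 entered the test over 17905 genes. The scavenger receptors Cd163 and Msr1, the apoptotic cell receptor Mertk, the transcription factor Maf and the lectin Cd209a had a probe but did not meet that condition. Cd163 was well above background on none of the 12 arrays, Mertk on 1 wt and 1 ERt2 array, and Maf on 3 wt, 1 ko and 1 ERt2 array.

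RNA of sorted bone marrow GMP was compared between 4 groups on 12 arrays. The wt group was Runx1+/+-Tg(vav-Cre) (n = 4) and the ko group Runx1fl/fl-Tg(vav-Cre) (n = 4), so that both carried the Cre transgene, driven by the vav promoter of blood cells. For the ERt2 (n = 2) and RUNX1-ERt2 (n = 2) groups, Runx1fl/fl-Tg(vav-Cre) marrow was taken on day 3 after 150 mg/kg 5-fluorouracil, given a MIG retroviral vector with GFP and either ERt2 alone or RUNX1 fused to ERt2, and grown for 6 weeks in lethally irradiated recipients before viable GFP+ GMP were sorted. ERt2 is a modified estrogen receptor domain that keeps a fused protein inactive until tamoxifen is given. The labels of all 4 transplant samples name tamoxifen, 49.5 µg/g on 3 days with harvest 24 h later, while the protocol speaks of giving it to a part of the mice. The ko to wt difference asks what the loss of Runx1 does, and the RUNX1-ERt2 to ERt2 difference asks what the return of RUNX1 activity does in cells that lack it. The labels do not say that replicates came from separate animals, so a p-value speaks only of the spread among the samples, which may be technical.

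Monocytes leave the marrow as Ly6C-bearing cells and become macrophages in tissues, where Fc receptors, scavenger receptors and lysosomal proteases serve the uptake and digestion of particles. Dendritic cells share early progenitors with them and take up antigen to present it to T cells. GMP sit upstream of both branches and already transcribe part of these programmes, and PU.1 (Spi1), Irf8 and RUNX1 are transcription factors known to act there.

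The promoters of the list were searched for the letters of a PU.1 site, GAGGAAGT, and of a RUNX site, TGTGGT or TGCGGT, on both strands in windows of 250 bases before to 50 after each RefSeq start site (GRCm38.p6), counted apart, and neither word holds the other. Of the 39 genes, 30 had a window in that table. The PU.1 letters stood in 21.6% of the 37 windows of the list and in 3.2% of 32851 windows in all. By gene this was 7 of 30 genes of the list (Cd300lf, Ctss, F13a1, Fcgr4, Ly6c1, Ly6c2 and Pld4), against 3.69% of 27025 genes in all. Both Ly6c2 windows hold the same sites, and Ly6c1 and Ly6c2 are close copies, so these are not counts of independent promoters. RUNX letters stood in 24.3% of the list's windows and in 22.4% of all. The stretches below are the 30 bases around the PU.1 letters in 5 genes of the list. These genes had the letters and changed in at least 1 of the main comparisons. Capitals mark the PU.1 letters, or their reverse complement where the match lies on the other strand.
Ly6c1, chr15:75048772-75048801, minus strand: accttgtctgaGAGGAAGTaaggactggtg
Fcgr4, chr1:171018891-171018920, plus strand: taaggctatttACTTCCTCtcttctagtca
Ctss, chr3:95526773-95526802, plus strand: aatgaaagttcACTTCCTCattgtggatgc
Pld4, chr12:112760653-112760682, plus strand: ctcagaacaaaGAGGAAGTgaatggaaggg
F13a1, chr13:37049181-37049210, minus strand: cgagtccttttGAGGAAGTacccagaggca
In Ctss the match begins 2 bases before the start site and in F13a1 15 bases after it. A match is a description of the letters and does not show that a factor binds there.

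Levels are log2 processed intensities minus the 75th percentile of the array, so that a difference of 1 is a 2-fold difference in intensity. Between 53.5% and 63.2% of probes were well above background per array. Slide 1 held replicates 1 and 2 of wt and ko, and slide 2 held replicates 3 and 4, for which the headers name a different protocol of the extraction software. The transplant groups filled 1 slide each, so slide and group cannot be told apart there. Both Runx1 probes were higher in ko than in wt, by 1.61 and 1.69 (adjusted p = 2.89e-05 and 0.00026), and the RUNX1-ERt2 minus ERt2 differences were -0.94 and -1.09 (adjusted p = 0.00273 and 0.0129), both opposite to the labels. The sources used here do not say which exons were floxed or whether these probes read the vector's RUNX1, so they check neither the deletion nor the re-expression. Group names, and RUNX1 present or absent, mean the arrays labelled so throughout. All 8 GMP markers tested (Mpo, Elane, Prtn3, Ctsg, Ms4a3, Prss57, Kit and Cd34) were above background in every group. In RNA of a sorted population, fewer cells of a type and less RNA per cell cannot be told apart.

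Between ko and wt, 10 of the 33 tested genes differed (25.3% of all genes did), of which 8 fell and 2 rose. The share of all genes called lower was 13.8% and called higher 11.5%, so the count of falls (8 of 33) stands above the first share and the count of rises (2 of 33) below the second. Ly6c1, Mpeg1, Lpl, Trem3, Ms4a6c, Ctss, Clec10a and Cd68 fell, and Apoe and Fcgr2b rose. Among the 28 tested monocyte and macrophage genes 7 fell and 2 rose, and among the 5 tested dendritic cell genes 1 fell. The median difference over the 33 genes was -0.29, against -0.05 over all genes. The arrays of the groups did not overlap for 3 of the genes that fell (Ly6c1, Trem3 and Cd68), where the share among all genes was 13.2%, and for 1 that rose (Apoe), where it was 10.1%. All 10 had the same sign on both slides. On slide 1 alone 7 of the 10 passed the threshold, and on slide 2 alone, with 4 arrays, limma called none of them (adjusted p from 0.0678 to 0.552), with 7 at an unadjusted p under 0.05. Without the slide term, adjusted p was 0.0604 for Ms4a6c, 0.131 for Mpeg1, 0.131 for Ctss, 0.144 for Lpl and 0.0657 for Clec10a. Scaled to the array median, it was 0.0743 for Trem3 and 0.0849 for Fcgr2b.

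In GMP with RUNX1-ERt2, 18 of the 33 genes were lower than with ERt2 and limma called none higher, with 24 at an unadjusted p under 0.05. Among all genes 8.87% were called lower and 10.2% higher. Slide cannot be told apart from group in this comparison. In the mice, the median slide 2 minus slide 1 difference was -0.90 over the list and 0.02 over all genes. All slide 2 arrays were lower for 36.4% of the list and 6.67% of all genes, and higher for 9.09% and 10.3%. The shares of all genes are therefore no full reference for this list, and the part of slide in its falls was not tested. The RUNX1-ERt2 minus ERt2 differences farthest from 0 were those of F13a1 (-5.40), Trem2 (-3.91), Pld4 (-3.19) and Mrc1 (-2.82). The falls took in 16 of 28 monocyte and macrophage genes and 2 of 5 dendritic cell genes, and the median difference over the list was -1.60 against 0.00 over all genes. With 2 arrays a group, values did not overlap for 27 genes that were lower (29.8% of all genes) and for 3 that were higher, Vcan, Zbtb46 and Siglech (29.1% of all genes). Without the slide term, which enters here through the shared estimate of the spread, adjusted p was 0.169 for Mrc1, 0.0519 for Adgre1, 0.138 for Mpeg1, 0.134 for Ctss, 0.0798 for Cd68, 0.14 for Fn1, 0.0704 for Fcgr3, 0.0839 for Axl and 0.292 for Batf3. With the 4 transplant arrays fitted alone it was 0.11 for Axl, 0.064 for Cd68, 0.064 for Tgfbi, 0.0613 for Fcgr2b, 0.0501 for Fcgr3, 0.0584 for Fcgr4 and 0.055 for Trem3. The ko to wt and the RUNX1-ERt2 to ERt2 comparisons share no array. In both, 5 genes fell (Trem3, Mpeg1, Cd68, Ctss and Clec10a), as 1.22% of all genes did, and 2 rose in ko and fell with RUNX1-ERt2 (Apoe and Fcgr2b), as 2.45% of all genes did. The fall of Cd68 with RUNX1-ERt2 was not shared by its second probe, which read 0.49 higher (adjusted p = 0.228). No gene of the list fell in ko and rose with RUNX1-ERt2, a pattern of 2.09% of all genes, and limma called none of the 33 higher in both, as 0.799% of all genes were.

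**Figure D1:**
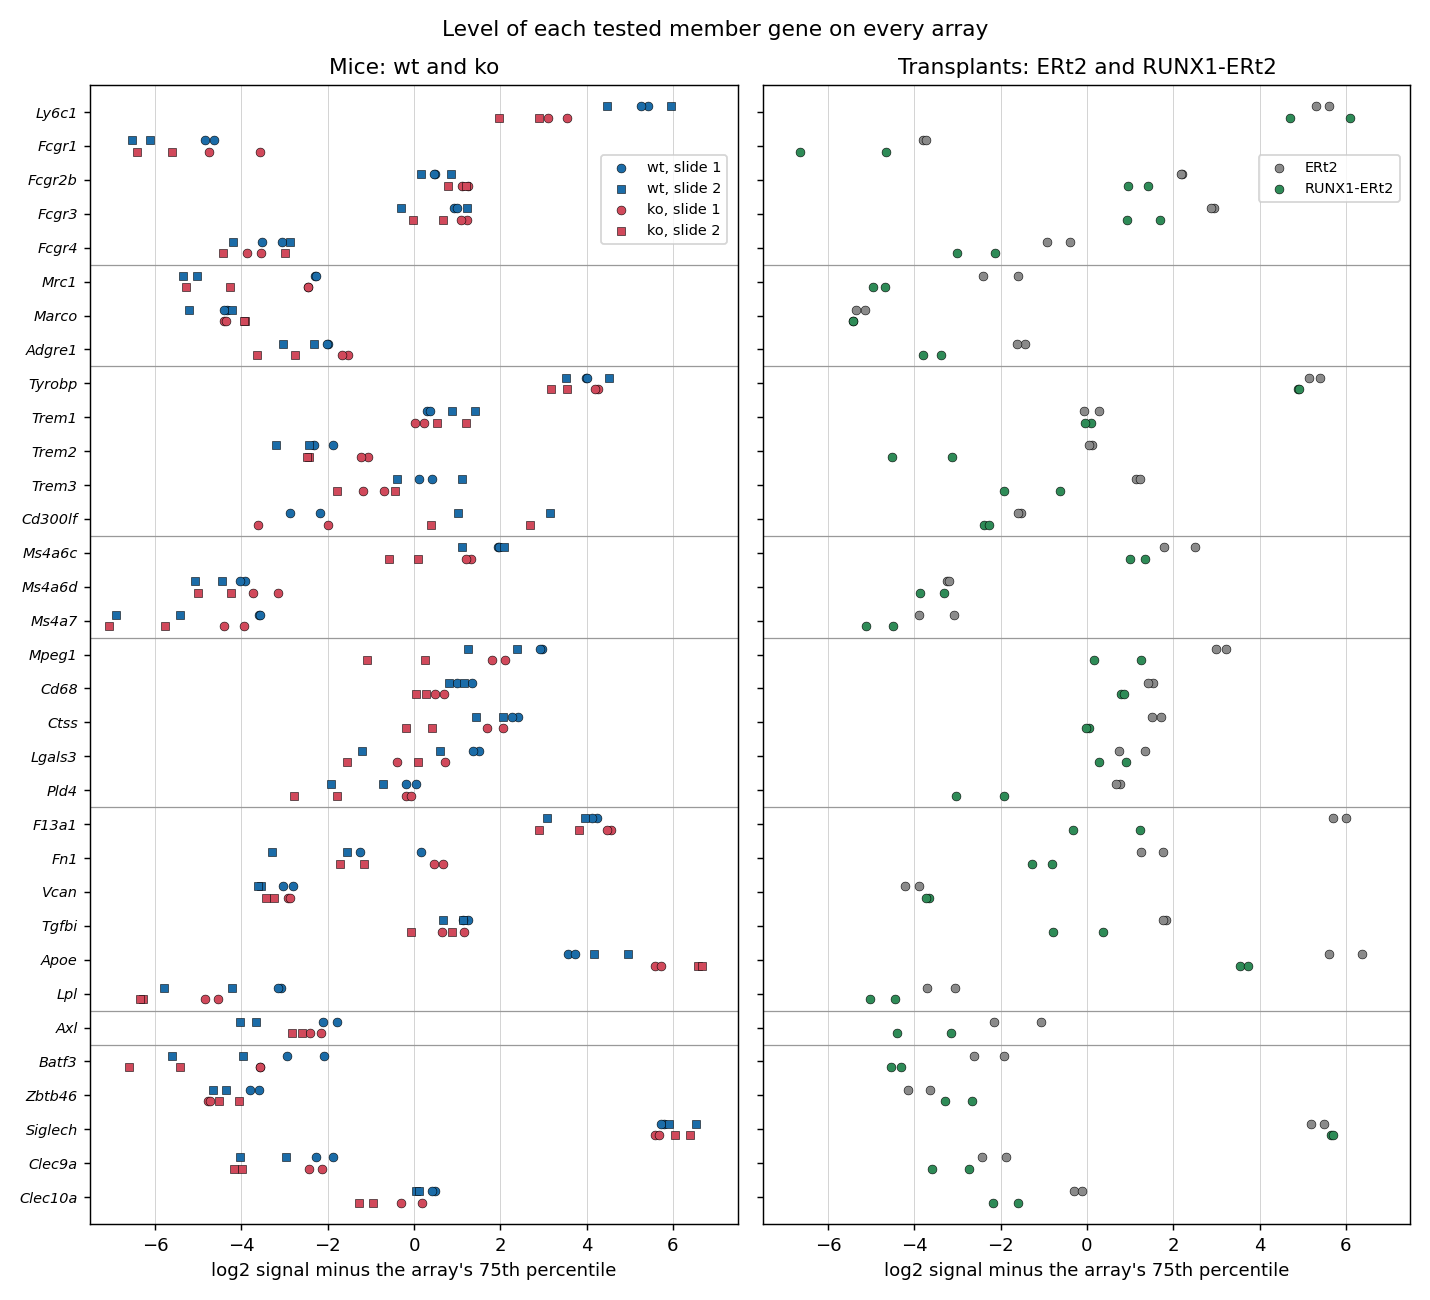
Log2 level of the 33 tested genes on each array, relative to the 75th percentile of the array, in the mice (left) and the transplants (right), with squares for slide 2 arrays. Both RUNX1-ERt2 points lie below both ERt2 points for 27 of the 33 genes and above them for 3.

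**Figure D2:**
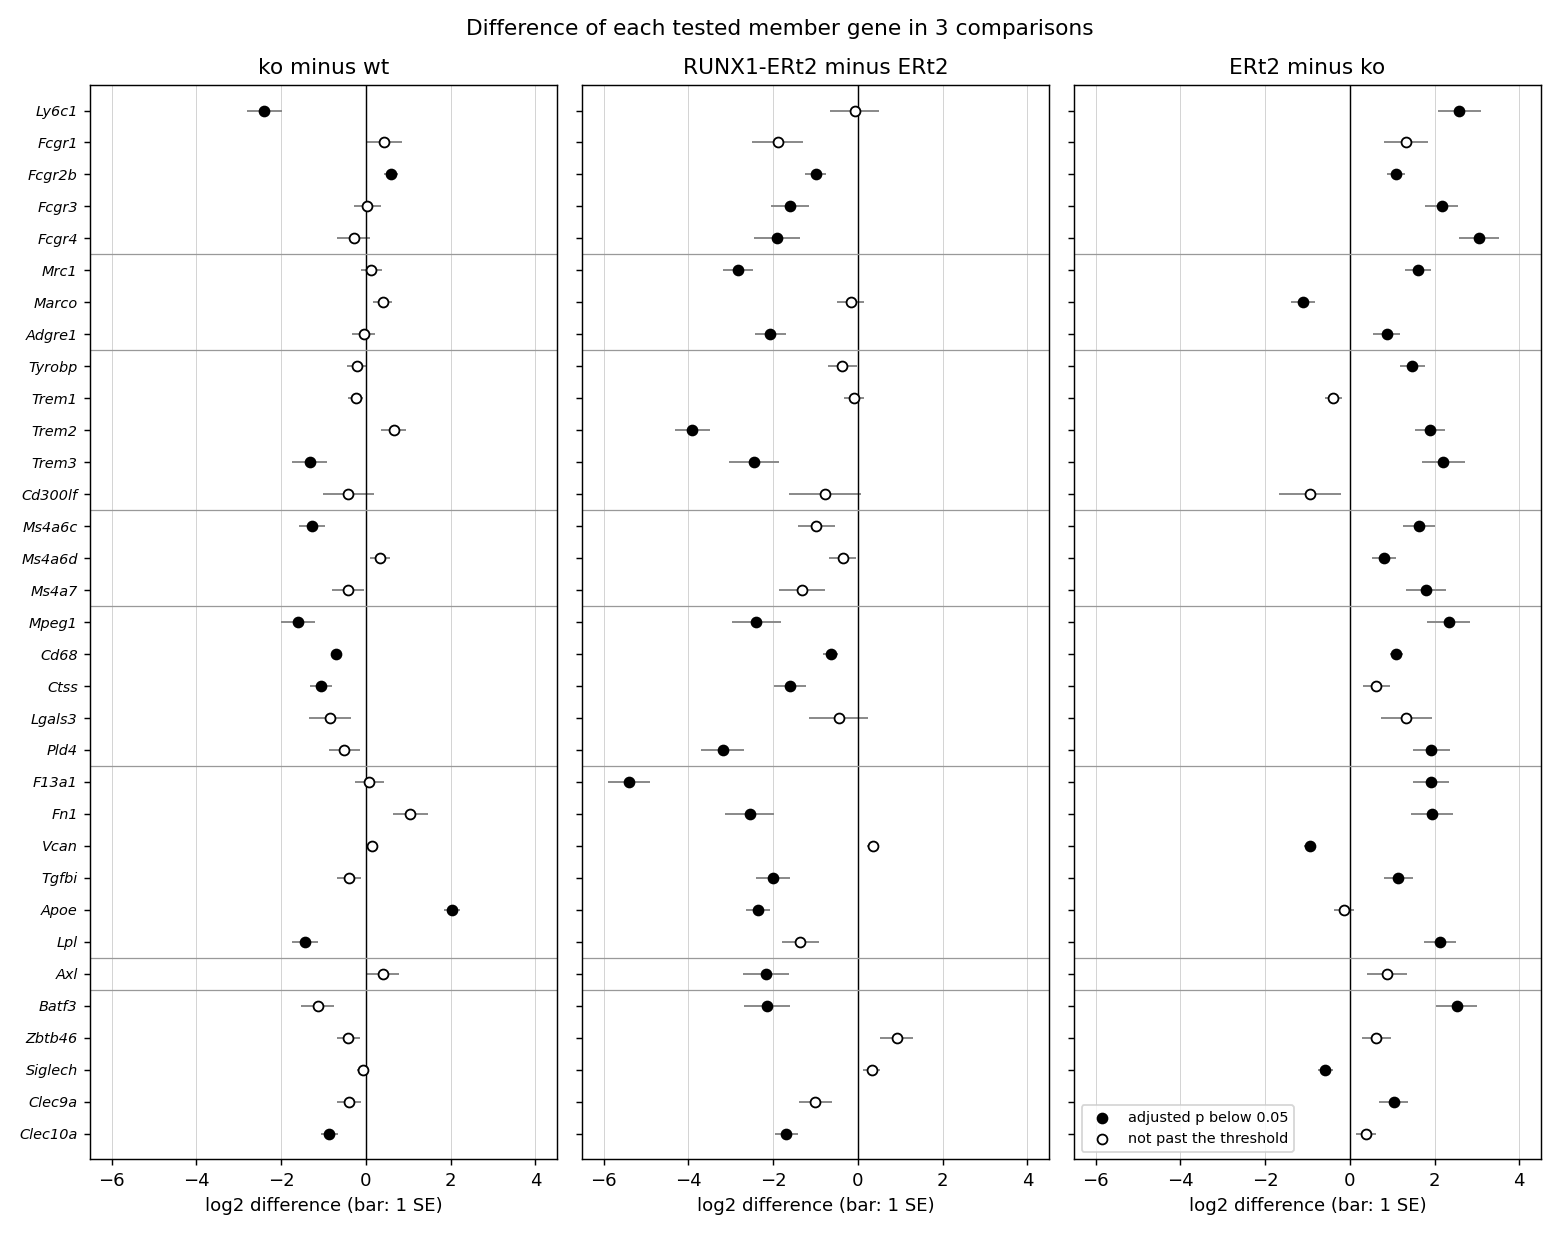
Difference of each tested gene with its standard error on the log2 scale in 3 comparisons: ko minus wt, RUNX1-ERt2 minus ERt2, and ERt2 minus ko. Filled points passed an adjusted p of 0.05, which 10, 18 and 24 of the 33 genes did.

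Ly6C is the surface protein by which mouse monocytes are gated. On wt arrays 1 to 4 the level of Ly6c1 was 5.43, 5.25, 5.97 and 4.47, and on ko arrays 1 to 4 it was 3.11, 3.55, 2.89 and 1.96. The ERt2 arrays read 5.32 and 5.61 and the RUNX1-ERt2 arrays 6.09 and 4.70. Every ko array lay below every wt array, and the 4 transplant arrays lay at the height of wt. Ly6c1 fell in ko by 2.40 (SE 0.41, adjusted p = 0.00372), a 5.28-fold lower intensity, and the difference was -2.01 within slide 1 and -2.79 within slide 2. Between RUNX1-ERt2 and ERt2 the difference was -0.07 (SE 0.58, adjusted p = 0.954). Its probe lies at chr15:74875495-74875554, minus strand, in mm9, the build of the files. A second Ly6c1 probe gave -2.79 in ko and -0.22 with RUNX1-ERt2. Ly6c1 and Ly6c2 are close copies with no probe named for the latter, so which of them these probes read is uncertain.

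Fcgr2b is the inhibitory receptor for IgG and Fcgr3 an activating one, and their products are the Fc receptor antigens of the usual GMP gate, so their levels between sorted groups can be set by the sort. For Fcgr2b the wt arrays read 0.49, 0.47, 0.86 and 0.17 and the ko arrays 1.25, 1.11, 1.20 and 0.79. Its ERt2 arrays read 2.20 and 2.17 and its RUNX1-ERt2 arrays 1.41 and 0.96. The third wt array lay just above the lowest ko array, and both RUNX1-ERt2 arrays lay below both ERt2 arrays. Fcgr2b was 0.59 higher in ko (SE 0.17, adjusted p = 0.0327), at 0.70 within slide 1 and 0.48 within slide 2, and lower with RUNX1-ERt2 (2.00-fold lower intensity, SE of the log2 difference 0.24, adjusted p = 0.0189). For Fcgr3 the arrays read 0.93, 1.00, 1.22 and -0.30 in wt, 1.24, 1.10, 0.67 and -0.03 in ko, 2.95 and 2.88 in ERt2, and 1.68 and 0.93 in RUNX1-ERt2. The wt and ko arrays lay among each other and both ERt2 arrays stood above all others. Fcgr3 fell by 1.61 with RUNX1-ERt2 (SE 0.45, adjusted p = 0.0343), a 3.05-fold lower intensity, and differed by 0.03 between ko and wt (adjusted p = 0.952).

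Fcgr4 encodes the IgG receptor of mature monocytes and macrophages, and its promoter holds the PU.1 letters shown above. Its arrays read -3.07, -3.52, -2.87 and -4.20 in wt, -3.87, -3.54, -2.99 and -4.43 in ko, -0.40 and -0.93 in ERt2, and -2.13 and -3.01 in RUNX1-ERt2. Wt and ko overlapped at a low level, ERt2 stood apart above them, and RUNX1-ERt2 lay below ERt2 with 1 array within the range of the mice. The fall with RUNX1-ERt2 was 1.91 (SE 0.54, adjusted p = 0.0382), a 3.75-fold lower intensity, and the ko to wt difference was -0.29 (adjusted p = 0.625). Fcgr1, the high-affinity IgG receptor, was near background, being well above it on 2 of 4 wt, 3 of 4 ko, both ERt2 and 1 of 2 RUNX1-ERt2 arrays. Its adjusted p with RUNX1-ERt2 was 0.0567, and 0.00583 without RUNX1-ERt2 replicate 1.

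Leaving out single arrays moved the adjusted p of the Fc receptors past the threshold in these comparisons while the differences kept their direction, at 0.48 to 0.75 for Fcgr2b in ko and, with RUNX1-ERt2, at -1.22 to -0.77 for Fcgr2b, -1.99 to -1.23 for Fcgr3 and -2.34 to -1.47 for Fcgr4. For Fcgr2b in ko, adjusted p was 0.0839 without wt replicate 1, 0.0882 without wt replicate 2, 0.0726 without wt replicate 4, 0.0948 without ko replicate 1, 0.072 without ko replicate 2 and 0.0712 without ko replicate 3. With RUNX1-ERt2 it was 0.0812 without ERt2 replicate 1, 0.0725 without ERt2 replicate 2 and 0.121 without RUNX1-ERt2 replicate 2. Fcgr3 had 0.0525 without wt replicate 1, 0.0537 without wt replicate 2, 0.0512 without ko replicate 1, 0.0522 without ko replicate 2, 0.125 without ERt2 replicate 1, 0.109 without ERt2 replicate 2 and 0.188 without RUNX1-ERt2 replicate 2. Fcgr4 had 0.0538 without wt replicate 1, 0.0572 without wt replicate 2, 0.0554 without ko replicate 1, 0.0565 without ko replicate 2, 0.172 without ERt2 replicate 1, 0.0807 without ERt2 replicate 2, 0.0505 without RUNX1-ERt2 replicate 1 and 0.202 without RUNX1-ERt2 replicate 2.

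Among scavenger, lectin and adhesion-type receptors, 2 of 3 tested genes fell with RUNX1-ERt2 and limma called none of the 3 in ko, where none was under an unadjusted p of 0.05. Of all genes, 8.87% fell with RUNX1-ERt2 and 25.3% were called in ko. Mrc1 encodes the macrophage mannose receptor. Its arrays read -2.31, -2.28, -5.04 and -5.35 in wt and -2.45, -2.47, -4.26 and -5.29 in ko, against -1.59 and -2.41 in ERt2 and -4.96 and -4.69 in RUNX1-ERt2. In the mice the level followed the slide and not the genotype, since all 4 slide 2 arrays lay below all 4 slide 1 arrays, and in the transplants both RUNX1-ERt2 arrays lay below both ERt2 arrays. Mrc1 fell by 2.82 with RUNX1-ERt2 (SE 0.36, adjusted p = 0.000764), a 7.08-fold lower intensity. The RUNX1-ERt2 level was at the height of slide 2 in the mice and the ERt2 level at that of slide 1.

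Adgre1 encodes an adhesion-type surface receptor by which mouse macrophages are recognised. Its levels were -1.99, -2.02, -2.32 and -3.03 in wt, -1.53, -1.66, -2.76 and -3.64 in ko, -1.44 and -1.62 in ERt2, and -3.38 and -3.81 in RUNX1-ERt2. The wt and ko arrays overlapped, the ERt2 pair lay near the top of all arrays, and the RUNX1-ERt2 pair near the bottom. Adgre1 fell by 2.06 with RUNX1-ERt2 (SE 0.37, adjusted p = 0.0047), and a second probe gave -1.64 (adjusted p = 0.0299). Marco, a scavenger receptor, stayed between -5.43 and -3.91 on all arrays, with a difference of -0.17 with RUNX1-ERt2 (adjusted p = 0.780).

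Tyrobp is the adaptor through which Trem receptors signal. Of the Tyrobp, Trem and Cd300 group, 2 of 5 genes fell with RUNX1-ERt2 (8.87% of all genes) and 1 of 5 in ko (13.8%). Trem2, a lipid-sensing receptor of macrophages, had wt arrays at -1.87, -2.31, -2.44 and -3.20 and ko arrays at -1.08, -1.23, -2.43 and -2.48. The ERt2 arrays read 0.12 and 0.05 and the RUNX1-ERt2 arrays -3.13 and -4.51. ERt2 stood above the other 10 arrays, and of the RUNX1-ERt2 arrays 1 lay close to the lowest wt array and 1 below it. Trem2 fell by 3.91 with RUNX1-ERt2 (SE 0.42, adjusted p = 0.000279), a 15.0-fold lower intensity, read by a probe at chr17:48491537-48491596 (mm9). In ko it was 0.65 above wt (adjusted p = 0.139), which became 0.0452 without either RUNX1-ERt2 replicate through the shared estimate of the spread.

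Trem3, an activating receptor of mouse myeloid cells, was lower in both comparisons. In wt its arrays read 0.41, 0.11, 1.10 and -0.39, and in ko -1.18, -0.69, -0.44 and -1.78. In ERt2 they read 1.14 and 1.24 and in RUNX1-ERt2 -0.62 and -1.92. All ko arrays lay below all wt arrays, the closest pair by a small margin, and the RUNX1-ERt2 arrays lay at the height of ko. Trem3 fell by 1.33 in ko (SE 0.41, adjusted p = 0.0440), at -1.19 within slide 1 and -1.46 within slide 2, and by 2.46 with RUNX1-ERt2 (SE 0.59, adjusted p = 0.0182). In ko, adjusted p was 0.103 without wt replicate 1, 0.0795 without wt replicate 2, 0.105 without wt replicate 3, 0.111 without ko replicate 1, 0.0669 without ko replicate 2, 0.127 without ko replicate 4 and 0.0605 without either ERt2 replicate, and 0.0504 after normexp background correction. With RUNX1-ERt2 it was 0.0715 without ERt2 replicate 1, 0.0794 without ERt2 replicate 2 and 0.119 without RUNX1-ERt2 replicate 2.

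Tyrobp was bright on all arrays, at 3.53 to 4.52 in wt, 3.18 to 4.27 in ko, 5.14 to 5.40 in ERt2 and 4.89 to 4.92 in RUNX1-ERt2. Its difference was -0.21 in ko (adjusted p = 0.561) and -0.37 with RUNX1-ERt2 (adjusted p = 0.522). Trem1, which amplifies inflammatory signals in neutrophils and monocytes, ranged from -0.07 to 1.41 on all arrays. Its probe carries a GTT repeat, with a run of 20 bases (capitals) shared with 8 probes of other genes, so its reading may not be of Trem1 alone.
Trem1 probe, bases 18 to 47: TTGTTGTTGTTGTTGTTGTTgttgttgttg
Cd300lf, an inhibitory receptor of myeloid cells, was below 0 on all 4 slide 1 arrays and between 0.39 and 3.15 on slide 2, in wt and ko alike, a difference between slides of 4.48. Its ERt2 and RUNX1-ERt2 arrays read -1.53 to -2.39, and other probes of the gene gave -1.33 (adjusted p = 0.360) and -1.78 (adjusted p = 0.198) with RUNX1-ERt2. Those other probes overlapped between the slides and were below 0 on every wt and ko array.

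Ms4a6c, of a family of 4-pass membrane proteins of myeloid cells, was the 1 of 3 Ms4a genes that fell in ko (13.8% of all genes). Its arrays read 1.96, 1.98, 2.08 and 1.11 in wt, 1.31, 1.21, 0.10 and -0.59 in ko, 1.79 and 2.51 in ERt2, and 1.35 and 1.00 in RUNX1-ERt2. The first wt arrays lay close together, the last lay below them and within the range of ko, and RUNX1-ERt2 lay below ERt2. In ko it fell by 1.27 (SE 0.31, adjusted p = 0.0171), at -0.70 within slide 1 and -1.84 within slide 2, and the difference with RUNX1-ERt2 was -0.98 (adjusted p = 0.162). Ms4a6d and Ms4a7 passed in neither comparison, with -0.36 (adjusted p = 0.512) and -1.32 (adjusted p = 0.132) with RUNX1-ERt2.

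Of the lysosome and phagosome genes, 3 of 5 were lower in ko (13.8% of all genes) and 4 of 5 lower with RUNX1-ERt2 (8.87%). Among the latter, the second probe of Cd68 read the other way, 0.49 higher (adjusted p = 0.228). Mpeg1 encodes perforin-2, the pore-forming protein of phagosomes. Its levels were 2.98, 2.92, 2.38 and 1.24 in wt, 1.81, 2.11, 0.26 and -1.08 in ko, 2.99 and 3.22 in ERt2, and 1.25 and 0.17 in RUNX1-ERt2. The groups overlapped in the mice, where slide 2 arrays were the lower ones within each genotype, and did not in the transplants. Mpeg1 fell by 1.60 in ko (SE 0.41, adjusted p = 0.0207), at -0.99 within slide 1 and -2.22 within slide 2, a 3.04-fold lower intensity over both. With RUNX1-ERt2 it fell by 2.40 (SE 0.58, adjusted p = 0.0189), a 5.27-fold lower intensity, and adjusted p was 0.0665 without ERt2 replicate 1, 0.0881 without ERt2 replicate 2 and 0.121 without RUNX1-ERt2 replicate 2. A second probe of Mpeg1 gave -1.44 and -1.93 in these comparisons (adjusted p = 0.0025 and 0.0032).

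Ctss encodes cathepsin S, the protease that trims the invariant chain of MHC class II. In wt the arrays read 2.40, 2.28, 2.07 and 1.43, and in ko 1.69, 2.05, 0.41 and -0.20. The ERt2 arrays read 1.52 and 1.72 and the RUNX1-ERt2 arrays 0.05 and -0.02. On each slide both ko arrays lay below both wt arrays, and RUNX1-ERt2 lay at the height of the lower ko arrays. Ctss fell by 1.06 in ko (SE 0.26, adjusted p = 0.0182), at -0.47 within slide 1 and -1.65 within slide 2, and by 1.60 with RUNX1-ERt2 (SE 0.37, adjusted p = 0.0154). The latter had an adjusted p of 0.0544 without ERt2 replicate 1, 0.0794 without ERt2 replicate 2, 0.059 without RUNX1-ERt2 replicate 1 and 0.0739 without RUNX1-ERt2 replicate 2.

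Cd68 encodes macrosialin, a glycoprotein of macrophage lysosomes. It read 1.00, 1.33, 1.16 and 0.81 in wt, 0.48, 0.69, 0.05 and 0.28 in ko, 1.52 and 1.42 in ERt2, and 0.78 and 0.87 in RUNX1-ERt2. All ko arrays lay below all wt arrays and the RUNX1-ERt2 pair below the ERt2 pair. Cd68 fell by 0.70 in ko (SE 0.12, adjusted p = 0.00401), at -0.58 within slide 1 and -0.82 within slide 2, and by 0.64 with RUNX1-ERt2 (SE 0.17, adjusted p = 0.0287). Its second probe also fell in ko, by 0.90 (adjusted p = 0.0076), but read 0.49 higher with RUNX1-ERt2 (adjusted p = 0.228), so the probes disagree there, and the mean of both gave an adjusted p of 0.85. For the first probe with RUNX1-ERt2, adjusted p was 0.126 without ERt2 replicate 1, 0.0786 without ERt2 replicate 2, 0.121 without RUNX1-ERt2 replicate 1 and 0.086 without RUNX1-ERt2 replicate 2, and 0.0516 with the replicate number as a block.

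Pld4, an exonuclease of endolysosomes that degrades single-stranded nucleic acids, carries the PU.1 letters shown above. Its arrays read -0.18, 0.04, -0.72 and -1.93 in wt, -0.19, -0.07, -1.78 and -2.78 in ko, 0.76 and 0.67 in ERt2, and -1.91 and -3.03 in RUNX1-ERt2. Wt and ko overlapped, ERt2 was above all others and RUNX1-ERt2 at the height of the lowest mouse arrays. Pld4 fell by 3.19 with RUNX1-ERt2 (SE 0.51, adjusted p = 0.00254), a 9.1-fold lower intensity, and kept this call under every alternative tried. Lgals3, the galectin of macrophages, passed in neither comparison, with -0.85 in ko (adjusted p = 0.239) and -0.45 with RUNX1-ERt2 (adjusted p = 0.724).

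Of the 6 secreted matrix and lipid genes, 4 fell with RUNX1-ERt2 (8.87% of all genes). In ko 1 of the 6 rose (11.5% of all genes) and 1 fell (13.8%). F13a1 encodes the A chain of clotting factor XIII, which monocytes make in quantity, and was read by a probe at chr13:36959214-36959273, minus strand (mm9). The wt arrays read 4.24, 4.12, 3.96 and 3.09 and the ko arrays 4.56, 4.46, 3.82 and 2.90. The ERt2 arrays read 5.70 and 6.01 and the RUNX1-ERt2 arrays 1.23 and -0.32. Wt and ko lay in the same range, ERt2 lay above all of them, and RUNX1-ERt2 below all of them. F13a1 fell by 5.40 with RUNX1-ERt2 (SE 0.50, adjusted p = 0.000119), a 42.2-fold lower intensity, and the ko to wt difference was 0.08 (adjusted p = 0.889). A second F13a1 probe was not well above background on either RUNX1-ERt2 array and was at least 27.9-fold higher with ERt2, measured as the ERt2 mean over the lowest signal counted as above background on the RUNX1-ERt2 arrays.

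Apoe, the apolipoprotein that macrophages secrete for lipid transport, was the gene of the list that rose most in ko, by a probe at chr7:20281732-20281791, minus strand (mm9). It read 3.58, 3.74, 4.17 and 4.95 in wt, 5.58, 5.72, 6.58 and 6.67 in ko, 6.37 and 5.62 in ERt2, and 3.56 and 3.73 in RUNX1-ERt2. All ko and ERt2 arrays, labelled as without RUNX1, lay above all wt and RUNX1-ERt2 arrays, labelled as with it. Apoe rose by 2.03 in ko (SE 0.20, adjusted p = 0.000211), at 1.99 within slide 1 and 2.07 within slide 2, a 4.08-fold higher intensity. With RUNX1-ERt2 it fell by 2.35 (SE 0.28, adjusted p = 0.000484), a 5.11-fold lower intensity.

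Lpl, the lipase that frees fatty acids from lipoproteins, read -3.07, -3.15, -4.23 and -5.80 in wt, -4.83, -4.55, -6.27 and -6.36 in ko, -3.05 and -3.71 in ERt2, and -5.02 and -4.46 in RUNX1-ERt2. On each slide both ko arrays lay below both wt arrays, and in the transplants the RUNX1-ERt2 arrays were the lower ones. The probe was well above background on 3 of 4 wt and 2 of 4 ko arrays, so the size of its difference in ko is uncertain. Lpl fell by 1.44 in ko (SE 0.31, adjusted p = 0.0103), at -1.58 within slide 1 and -1.31 within slide 2, and the difference with RUNX1-ERt2 was -1.36 (adjusted p = 0.0612, and 0.0256 and 0.0102 without wt replicate 3 and wt replicate 4).

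Fn1 encodes fibronectin. Its levels were 0.15, -1.24, -1.55 and -3.29 in wt, 0.47, 0.68, -1.15 and -1.71 in ko, 1.77 and 1.26 in ERt2, and -0.81 and -1.27 in RUNX1-ERt2. The wt arrays were spread widely and overlapped with ko, and the transplant pairs did not overlap. Fn1 fell by 2.56 with RUNX1-ERt2 (SE 0.57, adjusted p = 0.0136, with 0.0806 without ERt2 replicate 1 and 0.081 without RUNX1-ERt2 replicate 2). In ko it read 1.05 above wt (adjusted p = 0.0887, and 0.0267 without wt replicate 3). Tgfbi, a matrix protein induced by TGF-beta, read 1.25, 1.14, 1.13 and 0.68 in wt, 0.65, 1.15, 0.88 and -0.07 in ko, 1.83 and 1.77 in ERt2, and 0.36 and -0.78 in RUNX1-ERt2. ERt2 was the highest group and RUNX1-ERt2 overlapped with the lower ko arrays. Tgfbi fell by 2.01 with RUNX1-ERt2 (adjusted p = 0.0075), and in ko differed by -0.40 (adjusted p = 0.338). Vcan, the proteoglycan versican, stayed within -4.22 to -2.81 on all arrays and was 0.36 higher with RUNX1-ERt2 (adjusted p = 0.116).

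Axl, a receptor for the uptake of apoptotic cells, was the only one of its role that was bright enough to test. Its arrays read -2.11, -1.78, -4.04 and -3.65 in wt, -2.41, -2.15, -2.83 and -2.61 in ko, -1.06 and -2.17 in ERt2, and -4.40 and -3.15 in RUNX1-ERt2. Wt followed the slide, ko lay within the range of wt, and RUNX1-ERt2 lay below ERt2. Axl fell by 2.16 with RUNX1-ERt2 (SE 0.55, adjusted p = 0.0234, a 4.47-fold lower intensity). This adjusted p was 0.143 without ERt2 replicate 1, 0.142 without RUNX1-ERt2 replicate 1, 0.0671 after normexp background correction and 0.0683 with the replicate number as a block.

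Of the dendritic cell genes, 1 of 5 tested fell in ko (13.8% of all genes) and 2 of 5 with RUNX1-ERt2 (8.87%). Clec10a, a galactose lectin of dendritic cells and macrophages, read 0.50, 0.42, 0.05 and 0.11 in wt, -0.31, 0.18, -0.95 and -1.27 in ko, -0.30 and -0.11 in ERt2, and -1.60 and -2.19 in RUNX1-ERt2. One ko array lay within the range of wt, ERt2 lay with ko, and RUNX1-ERt2 lay below all others. Clec10a fell by 0.86 in ko (SE 0.19, adjusted p = 0.0115), at -0.53 within slide 1 and -1.19 within slide 2, and by 1.69 with RUNX1-ERt2 (SE 0.27, adjusted p = 0.00247).

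Batf3, a transcription factor needed for cross-presenting dendritic cells, read -2.94, -2.09, -3.97 and -5.62 in wt, -3.58, -3.57, -6.60 and -5.42 in ko, -1.92 and -2.63 in ERt2, and -4.30 and -4.53 in RUNX1-ERt2. Slide 2 arrays were the lower ones in both genotypes, where the probe was well above background on 3 of 4 wt and 3 of 4 ko arrays, and the transplant pairs did not overlap. Batf3 fell by 2.14 with RUNX1-ERt2 (SE 0.55, adjusted p = 0.0254). That p was 0.137 without ERt2 replicate 1, 0.0769 without RUNX1-ERt2 replicate 1, 0.112 without RUNX1-ERt2 replicate 2, 0.0523 after normexp background correction and 0.0617 with the replicate number as a block. In ko the difference was -1.14 (adjusted p = 0.0614, and 0.025 without wt replicate 4).

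Siglech, the sialic acid lectin of plasmacytoid dendritic cells, was bright, at 5.20 to 6.53, on all 12 arrays, with differences of -0.07 in ko (adjusted p = 0.769) and 0.33 with RUNX1-ERt2 (adjusted p = 0.305). The bright probe holds an AAAG repeat whose run of 20 bases (capitals) it shares with 3 probes of other genes, so this level may not be of Siglech alone.
Siglech probe, bases 31 to 60: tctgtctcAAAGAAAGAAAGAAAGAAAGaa
Another Siglech probe gave -1.98 with RUNX1-ERt2 (adjusted p = 0.135), and its adjusted p in ko was 0.243. Zbtb46, a transcription factor of conventional dendritic cells, was 0.92 higher with RUNX1-ERt2 (adjusted p = 0.140), and Clec9a, their receptor for dead cells, had a difference of -1.01 (adjusted p = 0.108, and 0.0489 without wt replicate 3).

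The ERt2 to ko comparison sets transplanted GMP with the control vector against GMP taken straight from mutant mice, neither with RUNX1. It shares the ko arrays with the first comparison and the ERt2 arrays with the second. Slide, transplant, vector, fluorouracil, the tamoxifen that the labels name and the GFP sort cannot be told apart in it. Of the 33 genes, 24 differed (56.9% of all genes did), with 21 higher and 3 lower in ERt2, and 30.2% and 26.7% of all genes were called in these directions. The list's median was 1.33 against 0.06 over all genes. Fcgr4, Ly6c1, Mpeg1 and Fcgr3 rose by 3.04, 2.59, 2.33 and 2.17 (adjusted p = 0.000591, 0.00206, 0.00356 and 0.00131). Marco, Vcan and Siglech fell by 1.11, 0.95 and 0.58 (adjusted p = 0.00736, 0.00023 and 0.0183). After normexp background correction the values of Marco and Vcan were -0.19 (adjusted p = 0.730) and -0.27 (adjusted p = 0.462), and Marco, well above background on 1 of 2 ERt2 arrays, had an adjusted p of 0.0601 without ERt2 replicate 2. Siglech was read by the repeat-bearing probe shown above, gave 0.36 (adjusted p = 0.688) without such probes, and had an adjusted p of 0.142 without ERt2 replicate 1. Arrays did not overlap for 19 genes higher in ERt2 (33.9% of all genes) and for 3 lower (29.1%). Apoe, which separated by RUNX1 above, differed by -0.14 (adjusted p = 0.634) here.

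Whether RUNX1 goes with a difference of the same size in the mice and in the transplants was tested as the RUNX1-ERt2 minus ERt2 difference less the wt minus ko difference. For 15 of the 33 genes this was below 0 and limma called none above 0, with 21 at an unadjusted p under 0.05. Among all genes 8.75% were called below 0 and 9.42% above. Slide and transplant group cannot be told apart in this value either. The median over the list was -1.74, against -0.03 over all genes. F13a1 stood farthest out at -5.32 (SE 0.61, adjusted p = 0.000578), followed by Mpeg1 at -4.00 (adjusted p = 0.00519), Trem3 at -3.78 (0.00719) and Pld4 at -3.69 (0.00417). For Mpeg1, Trem3, Cd68, Ctss and Clec10a, which fell in both comparisons, RUNX1 went with a higher level in the mice and a lower one in the transplants. For Cd68 the lower level in the transplants rests on its brighter probe, as the other read 0.49 higher with RUNX1-ERt2 (adjusted p = 0.228). For Apoe the value was -0.32 (SE 0.34, adjusted p = 0.558), with lower levels where RUNX1 was present in both settings. Ly6c1 had -2.47 (adjusted p = 0.0408), higher in wt than in ko with nearly equal means in the transplants. That p was 0.0659 without wt replicate 1, 0.0584 without wt replicate 2, 0.0726 without ko replicate 1, 0.0515 without ko replicate 3, 0.0687 without ko replicate 4, 0.075 without ERt2 replicate 1, 0.142 without ERt2 replicate 2 and 0.167 without RUNX1-ERt2 replicate 2.

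**Figure D3:**
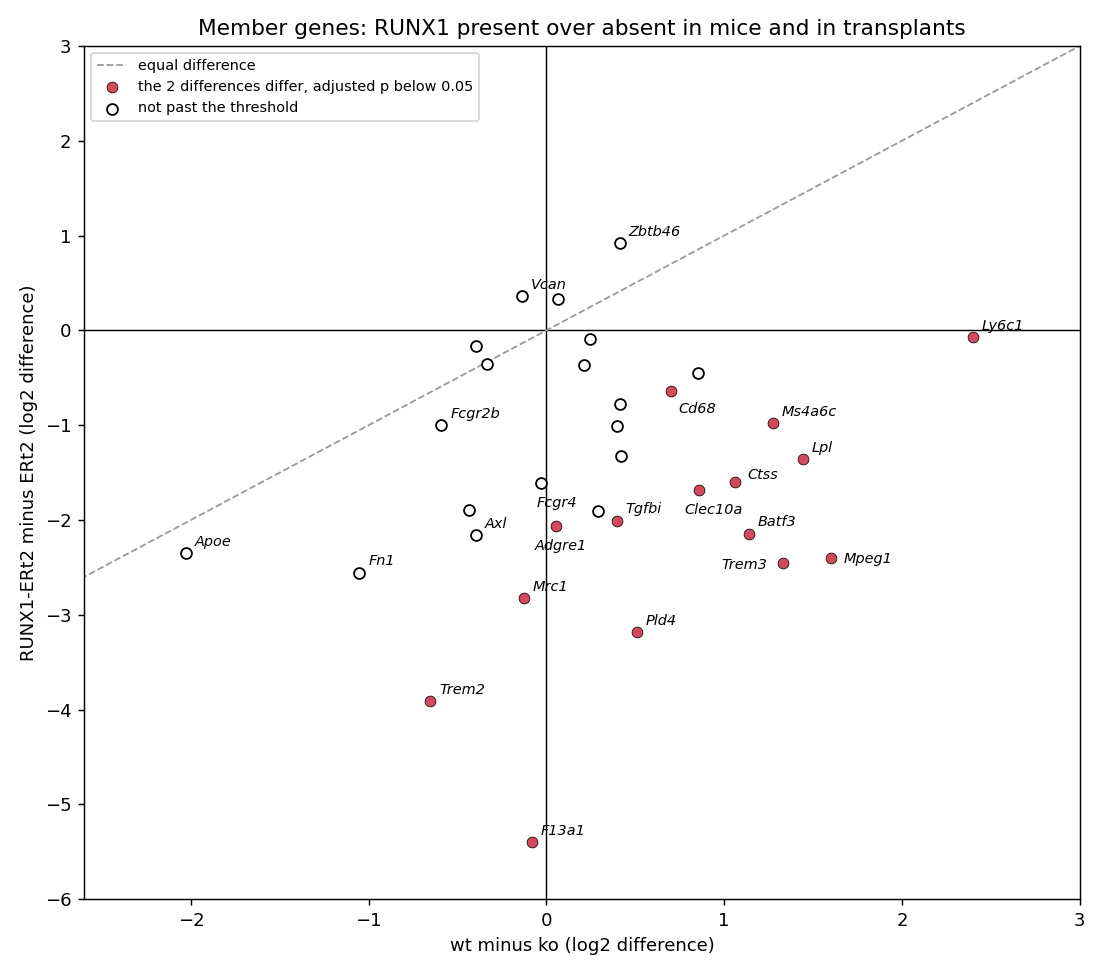
The wt minus ko difference (x axis, mice) against the RUNX1-ERt2 minus ERt2 difference (y axis, transplants) of each tested gene, both on the log2 scale as RUNX1 present over absent, with the line of equal differences dashed. The 15 filled genes have differences that were not equal at an adjusted p of 0.05 and all lie below the line.

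Other genes that guide the monocyte and dendritic cell fate were counted as a list, with 15 genes tested. In ko 7 fell (13.8% of all genes) and 1 rose (11.5%). Cx3cr1, the fractalkine receptor of monocytes, fell by 3.01 (adjusted p = 0.000692) and Irf8, the transcription factor that monocytes and dendritic cells require, by 1.57 (adjusted p = 0.00441). Ccr2, the receptor by which monocytes leave the marrow, fell by 1.34 (adjusted p = 0.00497). Irf4, Flt3, Cebpa and Id2 also fell, and Relb rose by 1.21 (adjusted p = 0.000827). With RUNX1-ERt2 4 fell (8.87% of all genes) and limma called none higher (10.2%), with 6 at an unadjusted p under 0.05. Csf1r, the receptor for the growth factor of macrophages, fell by 2.44 (adjusted p = 0.00352), Cx3cr1 by 2.42 (adjusted p = 0.011), Flt3 by 1.12 (adjusted p = 0.0223) and Cebpb by 1.05 (adjusted p = 0.0156). Spi1, which encodes PU.1, differed by -0.20 in ko (adjusted p = 0.606) and by -0.27 with RUNX1-ERt2 (adjusted p = 0.68). It was 1.98 higher in ERt2 than in ko (adjusted p = 0.00068). In that comparison 4 of the 15 genes were called higher and 3 lower, where 30.2% and 26.7% of all genes were. The median difference of the 15 was 0.05.

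Markers of the cells that a GMP gate could hold were read beside the list, and some of them moved with it. Of all genes, 13.8% were called lower and 11.5% higher in ko, and 8.87% lower and 10.2% higher with RUNX1-ERt2. From ko to ERt2, 30.2% of all genes were called higher and 26.7% lower. Summed over 7 tissue macrophage markers (C1qa, C1qb, C1qc, Vcam1, Cd5l, Spic and Adgre1, the last also a gene of the list), the signal relative to the 75th percentile was 1.08 to 3.28 in wt, 1.11 to 2.09 in ko, 8.15 to 11.6 in ERt2 and 1.15 to 1.27 in RUNX1-ERt2. With RUNX1-ERt2 6 of the 7 fell, and from ko to ERt2 all 7 rose, while in ko limma called none, with 2 at an unadjusted p under 0.05. Of the mature monocyte markers 5 of 6 were tested, and their sums were 12.99 to 23.5, 7.39 to 19.6, 31.1 to 33.4 and 4.62 to 8.39 in the same order of groups, with 2 lower in ko and 3 lower with RUNX1-ERt2. From ko to ERt2, 2 of these 5 were called higher (Lyz2 and Csf1r) and 1 lower (Ccr2, -0.91, adjusted p = 0.0261). The sums are set by the brighter markers. The 10 late neutrophil markers summed to 50.9 to 283 in wt, 21.8 to 282 in ko, 541 to 671 in ERt2 and 122 to 141 in RUNX1-ERt2. Of these 10, limma called none with RUNX1-ERt2 (median -2.02, with 3 at an unadjusted p under 0.05), 1 higher in ko (Cxcr2) and 6 higher in ERt2 than in ko. Dendritic cell markers summed to 18.0 to 30.4, 12.04 to 19.5, 28.2 to 48.1 and 22.9 to 25.9, with 5 of 6 tested lower in ko. From ko to ERt2, 4 of the 6 were called higher (median 1.97). With RUNX1-ERt2 1 of the 6 fell (Flt3) and 1 rose (Itgax, by 4.40, adjusted p = 0.000161). The latter was opposite to the 18 genes of the list called there, while 3 uncalled genes of the list also read higher. GMP markers themselves summed to 575 to 821, 338 to 497, 875 to 1005 and 430 to 621, with 5 of 8 lower and 1 higher in ko and 3 lower with RUNX1-ERt2. From ko to ERt2, 6 of the 8 were called higher (median 1.51), so the rise was not particular to the macrophage and neutrophil markers. Each tested marker of these 5 lists was well above background on at least 1 array of every group, and the part of these cell types in the differences of the list was not tested.

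**Figure D4:**
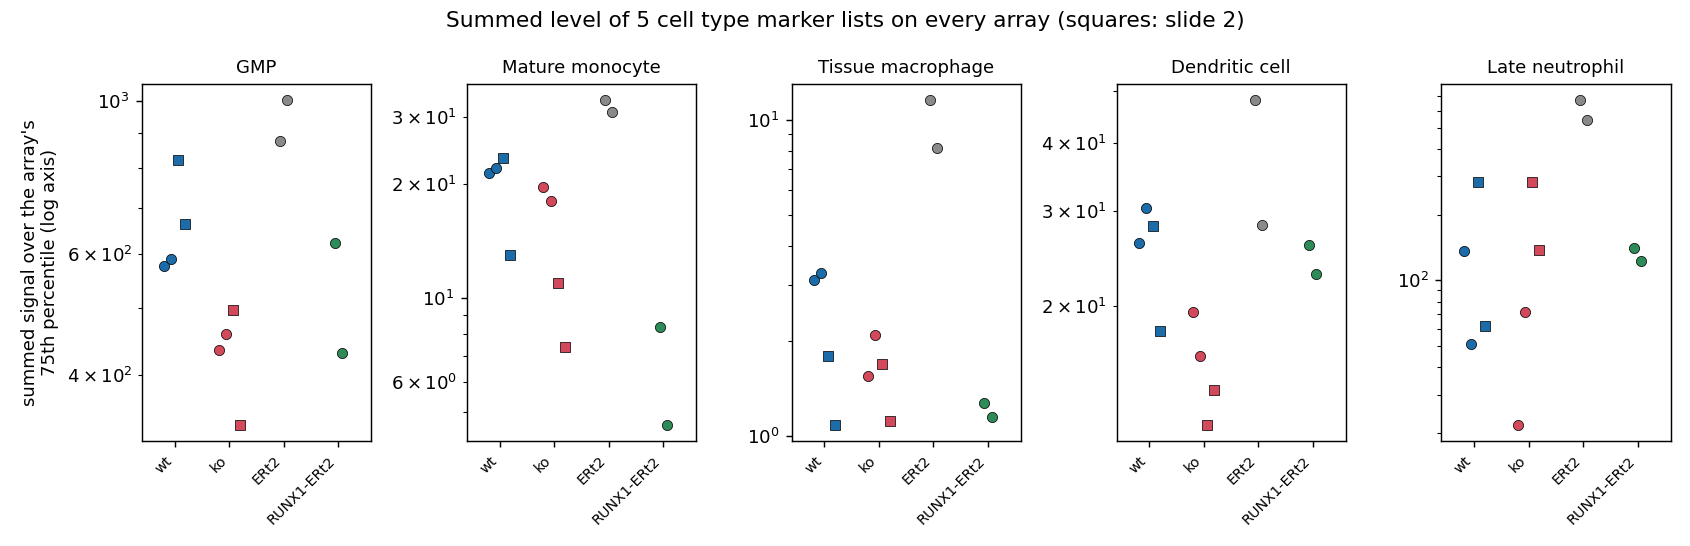
Summed signal of 5 marker lists on each array, relative to the array's 75th percentile, on a log axis. ERt2 arrays were the highest for the tissue macrophage, mature monocyte, late neutrophil and GMP lists, and the RUNX1-ERt2 arrays lay below them in each. Bright genes set the sums, and of the mature monocyte markers 2 were called higher and 1 lower (Ccr2) in ERt2 than in ko.

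The list also varied between the slides of the mice. Slide 2 arrays of wt and ko were all below the slide 1 arrays for 12 of the 33 genes (36.4%, against 6.67% of all genes). They were all above them for 3 (Trem1, Cd300lf and Siglech, 9.09% against 10.3%). Trem1 and Siglech were read here by the repeat-bearing probes shown above. The other tested Siglech probe was lower on every slide 2 array, at -5.92 to -3.59 against -2.71 to -0.95 on slide 1. For Cd300lf, the other probes of the gene overlapped between the slides. The median slide 2 minus slide 1 difference was -0.90 over the list and 0.02 over all genes, with Mrc1 at -2.61, Ms4a7 at -2.42 and Batf3 at -2.36. What differed between the slides besides the protocol name of the extraction software was not tested.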

How the data were processed

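RNA of sorted mouse GMP was labelled with Cy3 and hybridised to 12 Agilent 1-colour arrays, per the labels' protocols, and the labels gave the groups and replicate numbers. The deposited spot intensities are scanner output, background-subtracted and detrended by Agilent Feature Extraction 10.7.3.1, per the file headers (9.1 per the submitters' processing notes), with no normalization between arrays and positions in mm9. The series matrix deposited by the authors holds a ratio, the processed signal over about the median of the array, as found from the values. Its column medians are 0.91 to 0.94, and its 8 wt and ko columns matched scanner files of another replicate of the same group. It served as an alternative only.

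Spots marked as outliers by the software (129 to 207 per array) were left out. The 75th percentile of each array was subtracted from the log2 intensity, and a gene was read by its brightest probe, among those that in at least 1 group were well above background throughout. Gene names of the 39429 probes came from a RefSeq table by accession (27234), symbol (3576) or synonym (565), or stayed as deposited (8054). Differences were tested with limma 3.58.1 in R 4.3.3, two-sided, in 1 model that holds a mean for each of 4 groups and the slide of wt and ko, with 7 residual and 2.11 prior degrees of freedom. The Benjamini-Hochberg adjustment ran over 17905 genes, with a threshold of 0.05, and the fit was tested on simulated data. The number of arrays limits the precision.

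The genes of the list, the other gene lists, the rule for naming genes (every gene past the threshold in ko to wt or RUNX1-ERt2 to ERt2 with the value of each array, the others by range) and the tests were chosen with earlier results of these data known. Marker lists were described by their sums, with no set test. Deviations from the group mean correlated between wt and ko arrays of the same number (r = 0.373, 0.354, 0.176 and 0.674), but these arrays also shared a slide. With the slide effect removed r was -0.03 for numbers 1 and 2 and 0.43 for 3 and 4. Each is a single value for both numbers, since the deviations of 2 arrays mirror each other. Whether arrays of the same number are pairs is therefore uncertain. The alternatives were another background correction, array median and quantile scaling, the series matrix, other filters and probe choices, no slide term, each slide alone, the groups compared alone, the replicate number as a block, and leaving out each array. After the data were seen, a block with crossed transplant numbers and a run without the 3024 probes that share a 20-base run with a probe of another gene were added.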

Additional observations from a re-analysis of the deposited data

Results flagged for a closer look

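In the wt group Ms4a6c read 1.11 on array 4, away from the other 3 arrays, which read 1.96 to 2.08. It was the 1 of 66 groups of 4 arrays scanned in which a single array stood this far from the rest. Chance alone flags about 1 in 20 where the 4 arrays are alike. The arrays of each group lay on slides 1 and 2, between which the list varied, so that rate need not hold here.

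The difference that goes with RUNX1 was not the same in the transplants (RUNX1-ERt2 minus ERt2) and in the mice (wt minus ko) for 15 genes, by the limma test of the difference between them. For the monocyte and macrophage receptors this value was -2.47 for Ly6c1, -2.70 for Mrc1 (adjusted p = 0.00362), -2.12 for Adgre1 (adjusted p = 0.0127), -3.25 for Trem2 (adjusted p = 0.00295), -3.78 for Trem3 and -2.25 for Ms4a6c (adjusted p = 0.0197). For the lysosome and phagosome genes it was -4.00 for Mpeg1, -1.34 for Cd68 (adjusted p = 0.00288), -2.66 for Ctss (adjusted p = 0.00432) and -3.69 for Pld4. For the secreted and lipid genes it was -5.32 for F13a1, -2.40 for Tgfbi (adjusted p = 0.00947) and -2.80 for Lpl (adjusted p = 0.00757), and for the dendritic cell genes -3.28 for Batf3 (adjusted p = 0.0106) and -2.55 for Clec10a (adjusted p = 0.00108). Adgre1 did not pass without RUNX1-ERt2 replicate 2 (adjusted p = 0.0577), nor Ms4a6c without ERt2 replicate 2 (0.0944) or RUNX1-ERt2 replicate 2 (0.0799). Without the slide term, adjusted p was 0.29 for Mrc1, 0.176 for Batf3, 0.129 for Lpl, 0.099 for Adgre1, 0.0705 for Ms4a6c, 0.0536 for Pld4 and 0.0521 for Ly6c1. In 8 of the 15 (Cd68, Clec10a, Ctss, F13a1, Mpeg1, Tgfbi, Trem2 and Trem3) the call held under every alternative tried. The second probe of Cd68, fitted on its own, gave -0.41 (adjusted p = 0.417). Transplantation, vector, fluorouracil, the tamoxifen that the labels name and slide cannot be told apart from each other in this comparison of transplants with mice.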

How the results depend on the processing

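No called gene changed direction in ko against wt, in RUNX1-ERt2 against ERt2 or in the test between them under any alternative; the calls of 5 of 18 genes with RUNX1-ERt2 (Apoe, Clec10a, F13a1, Pld4 and Trem2), 8 of 15 in the test between the differences, 10 of 24 in ERt2 against ko and 0 of 10 in ko against wt (where slide 2 alone ended all) held under every alternative. Siglech in ERt2 against ko turned to 0.36 (adjusted p = 0.688) without probes that share sequence, since another probe then stands for it, and Adgre1, not called in ko, was 0.41 higher on slide 1 alone (adjusted p = 0.0481).

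In ko, the 2 genes of the list called higher became 1 with array median scaling, with the series matrix and with no filter on dim probes, 4 on slide 1 alone and 0 on slide 2 alone. The 8 called lower became 3 when the slide was not fitted and 0 on slide 2 alone. Without the slide term the 18 called lower with RUNX1-ERt2 became 9, the 21 higher in ERt2 than in ko became 13 and the 15 of the test between the differences became 9; this term takes the spread between slides out of the error. With normexp background correction the 3 lower in ERt2 than in ko became 1.

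Over all genes, normexp correction gave 1057 higher and 1354 lower in ko (2065 and 2471), 828 higher and 771 lower with RUNX1-ERt2 (1830 and 1588), 2913 lower in ERt2 than in ko (4781), and 701 above and 772 below 0 in the test between the differences (1686 and 1567). Lower in ko were 1397 with array median scaling and 1328 with the series matrix. Slide 2 alone gave 181 and 200 in ko, the groups compared alone gave 886 and 767 with RUNX1-ERt2, and no filter gave 10563 higher in ERt2 than in ko (5405). Slide 2 alone and the smaller fit have fewer arrays. The run with no filter tests more genes than the 17905 of the main run, so its count is out of another total. For the other settings the cause was not tested.

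Leaving out 1 array at a time gave 1 to 3 genes of the list higher and 7 to 9 lower in ko, 8 to 20 lower with RUNX1-ERt2, 15 to 22 higher and 2 to 4 lower in ERt2 than in ko, and 0 to 1 above and 12 to 18 below 0 in the test between the differences. Over all genes it gave 1388 to 2250 higher and 1447 to 2585 lower in ko, 1244 to 1940 higher and 935 to 1745 lower with RUNX1-ERt2, 3691 to 5637 higher and 3771 to 4884 lower in ERt2 than in ko, and 1027 to 1776 above and 854 to 1691 below 0 in that test. A lone array left in a transplant group is assumed to vary like the other groups.

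With the replicate number as a block, 2 genes were higher and 8 lower in ko, 15 lower with RUNX1-ERt2, 22 higher and 4 lower in ERt2 than in ko, and 17 below 0 in the test between the differences. Besides the losses of Axl, Batf3 and Cd68 with RUNX1-ERt2, Clec9a was lost (adjusted p = 0.0545) and Fcgr1, Lgals3 and Trem1 gained (0.0496, 0.0126 and 0.0465) in ERt2 against ko, and Fcgr3 and Fcgr4 gained (0.0238 and 0.00458) in the test between the differences. The transplant pairs had r = -0.19, and crossing their numbers gave 2 higher and 8 lower in ko, 18 lower with RUNX1-ERt2, 23 and 4 in ERt2 against ko, and 17 in that test. Signal over background limits Fcgr1, Marco, Ms4a7, Lpl and Batf3, which were not well above background on part of the arrays.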

Other observations

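Markers of other cell types were summed in the same way, as signal over the 75th percentile. B lineage markers (4 of 6 tested) summed to 4.42 to 5.00 in wt, 3.92 to 5.53 in ko, 8.47 to 9.46 in ERt2 and 5.13 to 5.59 in RUNX1-ERt2, and T and NK markers (5 of 6) to 18.4 to 33.3, 7.93 to 12.2, 35.9 to 48.5 and 13.7 to 15.2. Bright genes set these sums. Of the T and NK markers only Nkg7 was called, lower in ko (-1.38), lower with RUNX1-ERt2 (-1.57) and higher in ERt2 than in ko (2.25), where the list's median was -1.03. Of the B lineage markers, Cd79b and Ms4a1 were higher (0.94 and 1.67) and Cd79a lower (-1.65) in ERt2 than in ko. Erythroid markers (5 of 6) summed to 7.82 to 14.4, 16.8 to 46.9, 74.2 to 129 and 75.6 to 86.8, and megakaryocyte markers (5 of 5) to 6.97 to 10.6, 16.1 to 25.5, 8.64 to 17.9 and 12.4 to 36.1. Basophil and mast cell markers (5 of 5) summed to 18.6 to 22.5, 27.6 to 57.3, 28.9 to 45.1 and 34.1 to 44.8. In ko the sum was higher while 4 of these 5 markers fell (Prss34, Fcer1a, Mcpt8 and Ms4a2, of which Mcpt8 had a difference of -3.34 and Ms4a2 of -0.84) and Cpa3 rose by 1.92. Stroma and endothelium markers (4 of 6) summed to 3.78 to 4.26, 2.91 to 3.72, 2.26 to 2.43 and 2.78 to 2.89.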
